A study of Homo sapiens with 4 samples.

Results

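The mitochondrial ribosomal protein genes were followed in TU-177 cells, an established human laryngeal squamous cell carcinoma (LSCC) line, after knockdown of SKA3. The genes were taken as the protein-coding symbols MRPL (large subunit) or MRPS (small subunit) followed by a number, and 76 of the 28729 genes in the expression table met this, 48 of the large and 28 of the small subunit. RNA-seq libraries came from 4 cultures, 2 transduced with lentivirus carrying a negative control (NC) and 2 with an shRNA against SKA3 (SKA3-KD), all selected with puromycin before harvest. The methods of the study also describe SKA3-KD lines made by genome editing, and no source used here says whether the cultures of a group were independent transductions, so p-values measure the spread between these cultures only. The identifiers of MRPS21 and MRPL45 were not among the rows, and both are not analysed here.

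The mitochondrial ribosome (mitoribosome) translates the messenger RNAs of mitochondrial DNA, which encode core subunits of the respiratory chain and the ATP synthase. Its ribosomal RNAs are made in the organelle, whereas all of its proteins are encoded in the nucleus, translated in the cytosol and imported. Some of the proteins descend from bacterial ribosomal proteins and others exist only in mitochondria. SKA3 is a subunit of the spindle and kinetochore associated complex, which couples chromosomes to spindle microtubules. Promoters of nuclear genes for mitochondrial proteins are known for binding sites of NRF1, of ETS factors such as GABPA, and of YY1.

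Of the 76 genes, 67 matched a promoter in RefSeq (build GRCh38.p14, 300 bases each, 250 before and 50 after the start site). The stretches below are shown because they carry the matches referred to with the values, or lie before the members with the lowest and highest fold changes. MRPL57 shares its start region with SKA3 itself, the gene targeted by the knockdown. MRPL57 runs on the plus strand of chromosome 13 and SKA3 on the minus strand, with 106 bases between their RefSeq start sites and 43 bases between their gene starts in GENCODE 29. Sequences run 5′ to 3′ on the strand of the gene. Capitals mark matches to the NRF1 motif (the letters GCGC on both sides of any 2 bases) or to the ETS motif CCGGAAG.
MRPL57: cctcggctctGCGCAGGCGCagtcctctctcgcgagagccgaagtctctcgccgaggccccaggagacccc
MRPL20: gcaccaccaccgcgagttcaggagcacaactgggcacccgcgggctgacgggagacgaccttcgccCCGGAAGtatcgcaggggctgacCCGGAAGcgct
MRPS33: tagccttactGCGCAGGCGCcaggtacacc
MRPL33: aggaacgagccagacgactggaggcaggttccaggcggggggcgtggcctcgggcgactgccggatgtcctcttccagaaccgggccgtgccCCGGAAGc
MRPS35: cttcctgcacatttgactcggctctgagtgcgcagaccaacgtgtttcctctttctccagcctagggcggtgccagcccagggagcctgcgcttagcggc

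The stretches lie at chr13:21176574-21176644 on the plus strand for MRPL57, chr1:1407304-1407403 on the minus strand for MRPL20, chr7:141015088-141015117 on the minus strand for MRPS33, chr2:27771619-27771718 on the plus strand for MRPL33 and chr12:27710683-27710782 on the plus strand for MRPS35. The NRF1 match of MRPL57, at chr13:21176584-21176593, was on the other strand also the match of SKA3. It ended 65 bases before the MRPL57 start site and 32 bases before the SKA3 start site of RefSeq. In GENCODE 29, which starts SKA3 further upstream, the match lies inside the SKA3 gene. The ETS letters stood at 2 places in MRPL20, starting 44 and 21 bases before its start site, and at 1 place in MRPL33, starting 8 bases before it. In GENCODE 29 the MRPL20 letters nearer the start site lie mostly inside the gene. The NRF1 match of MRPS33 lay 155 to 146 bases before its RefSeq start site. In GENCODE 29, which starts MRPS33 further upstream, it lies inside the gene. The MRPS35 promoter held none of the marked motifs.

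SKA3 was checked first. Its FPKM (the authors' deposited unit, fragments scaled to the gene's length in kilobases and to the size of the library) was 9.40 and 9.64 in NC 1 and NC 2, and 3.77 and 4.12 in SKA3-KD 1 and SKA3-KD 2. Both SKA3-KD libraries lay below both NC libraries, with a log2 fold change of -1.09 (SE 0.07, adjusted p = 0.00806, limma). Without NC 1 or NC 2 the adjusted p was 0.0660 and 0.0600. The libraries behind the values held 9015056 to 11966130 reads, a total derived from the smallest FPKM steps. Of the squamous epithelial markers, SFN (133 to 155 FPKM) and KRT17 (45.6 and 49.1 FPKM in NC, 29.4 and 35.7 FPKM in SKA3-KD) were present, whereas KRT5, KRT6A and KRT14 were at or near 0 and TP63 did not pass 0.58 FPKM. Of 8 markers of immune, endothelial and fibroblast cells, 6 were in the table, and PTPRC, CD68, VWF and LUM were at or near 0. The summed FPKM of these 6 was 11.7 and 12.7 in NC and 5.24 and 5.14 in SKA3-KD, nearly all of it from DCN (8.40 and 8.36 against 2.48 and 2.35) and COL1A1 (3.22 and 3.99 against 2.71 and 2.66). KRT17 fell by 0.53 on the log2 scale (adjusted p = 0.0396, limma) and DCN fell by 1.46 (adjusted p = 0.0065, limma). The part of these markers in the results was not tested.

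The mitoribosomal genes spanned a wide range of levels. MRPS34, a mitochondria-specific small subunit protein, was highest at 142 and 143 FPKM in NC and 155 and 159 FPKM in SKA3-KD. MRPL51, a mitochondria-specific large subunit protein, followed at 117 and 105 FPKM in NC and 103 and 93.9 FPKM in SKA3-KD. Every library put MRPS34 above MRPL51. Next came MRPL3 (mean 91.3 FPKM over the 4 libraries), MRPL14 (77.1 FPKM) and MRPL37 (67.6 FPKM), whose neighbours in this order overlapped in range. The mean was at least 50 FPKM in 10 genes, 10 to 50 FPKM in 46, 5 to 10 FPKM in 13 and under 5 FPKM in 7.

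The 5 genes with the lowest means were MRPL53, MRPS24, MRPL46, MRPL38 and MRPL30. MRPL53 (mean 1.83 FPKM) overlapped in range with MRPS18C above it (2.08 FPKM). The other 4 were under the mean of 1 FPKM set for testing, so 72 of the 76 genes were tested, 45 of the large and 27 of the small subunit. MRPS24 had 0.672 and 0.212 FPKM in NC and 0.414 and 0.357 FPKM in SKA3-KD. MRPL46 had 0.494 and 0.483 FPKM against 0.397 and 0.250 FPKM, on 19 to 38 reads a library. The range of MRPS24 over the libraries overlapped that of MRPL46. Between the groups, MRPS24 overlapped, while both SKA3-KD libraries of MRPL46 were below both NC libraries. MRPL38 stood on 4 to 7 reads a library, and MRPL30 on 1 and 2 reads in NC, with 1 read in SKA3-KD 2 and a listed 0 in SKA3-KD 1. No fold change was taken for these 4.

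The low genes were mostly ones that share exons with another gene on the same strand in GENCODE 29. Of the 7 genes under 5 FPKM, 6 shared exon bases this way, against 10 of the 69 genes at 5 FPKM or more. MRPS24 shared 23.2% of its exon bases with URGCP-MRPS24, MRPL53 shared 45.2% with CCDC142, and MRPL38 shared 37.5%. MRPL12, the stalk protein that contacts translation factors, shared 68.2% of its exon bases and had 7.64 and 6.04 FPKM in NC and 7.65 and 5.53 FPKM in SKA3-KD. How fragments in shared exons were assigned is not stated in the sources used here, so the levels of these genes are uncertain.

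**Figure D1:**
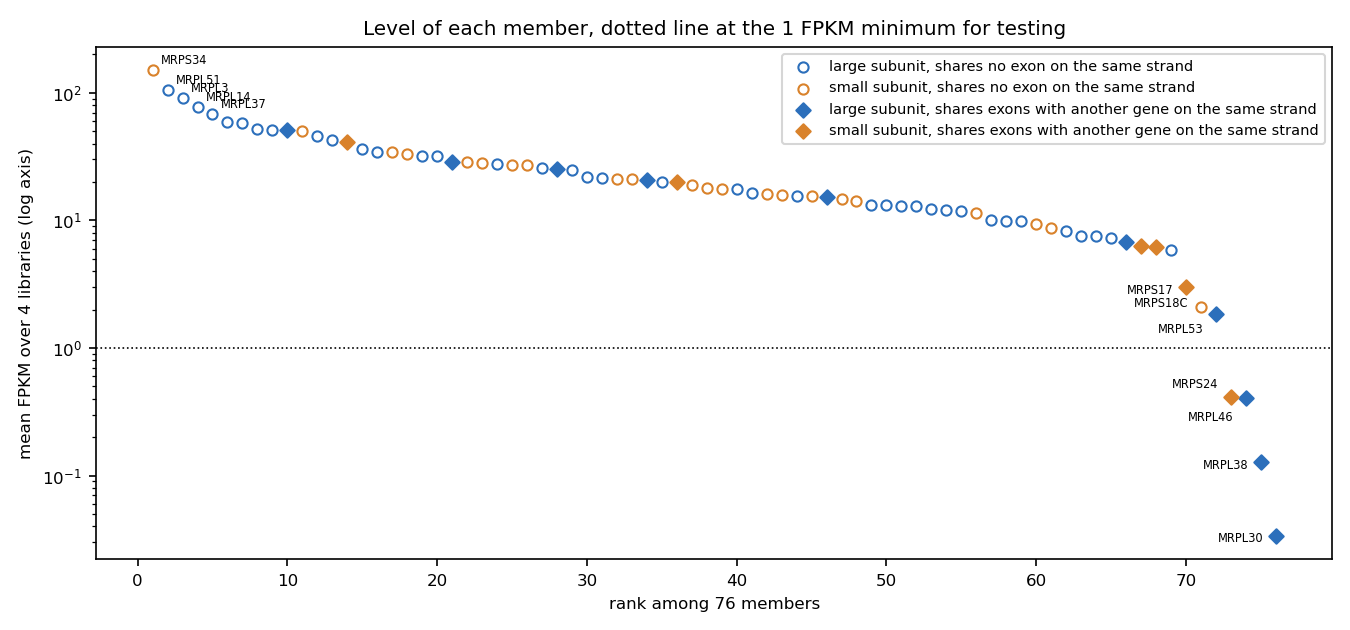
Mean FPKM over the 4 libraries (log axis) of the 76 mitoribosomal protein genes in order of rank, blue for the large and orange for the small subunit. Filled diamonds share exons with another gene on the same strand, and 6 of the 7 genes under 5 FPKM are of this kind.

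After SKA3 knockdown, 7 mitoribosomal genes fell and none rose at an adjusted p under 0.05 (limma on log2(FPKM + 1), Benjamini-Hochberg over 12645 genes). They were MRPS35, MRPS33, MRPS14 and MRPS16 of the small subunit and MRPL42, MRPL9 and MRPL20 of the large subunit. In bulk RNA a lower level in each cell and fewer cells that express a gene cannot be told apart. The falls of mean FPKM ranged from 16.9% in MRPS16 to 41.1% in MRPS35. The 7 genes were 9.72% of the 72 tested, beside 6.11% of all genes tested that were called lower, and the 0 called higher stood beside 6.16% of all genes. At an unadjusted p under 0.05, 14 of the 72 members were lower and 8 higher. Of all 12645 genes, 1912 (15.1%) were lower and 2046 (16.2%) higher. All 7 calls were lost when any library was left out or when low genes were kept in the fit, MRPS14 alone passed without a mean-variance trend, and limma voom on recovered reads called the same 7 lower plus 2 higher. Voom called 12.0% of all genes lower and 13.4% higher, so under voom the members' 9.72% lay below the share of all genes. With low genes kept, 81 of all 26504 genes were called lower, and without a mean-variance trend 381 of 12645. An exact permutation test of 2 against 2 libraries cannot go below p = 0.333, so the calls rest on the spread that limma pools across genes.

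MRPS35, a mitochondria-specific protein of the small subunit, had the lowest fold change. Its gene (ENSG00000061794, chromosome 12, 27710773 to 27756295, plus strand, GRCh38) had 36.4 and 31.5 FPKM in NC and 22.1 and 17.9 FPKM in SKA3-KD. The means were 33.9 ± 3.43 and 20 ± 2.99 FPKM (SD, n = 2 each), and the groups stood well apart. The log2 fold change was -0.74 (SE 0.12, adjusted p = 0.0287, limma). It shares no exon with another gene, and its promoter held neither NRF1, ETS nor YY1 letters.

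MRPS33 is also a mitochondria-specific small subunit protein. Its gene (ENSG00000090263, chromosome 7, 141002610 to 141015228, minus strand) had 20.7 and 22 FPKM in NC and 15.6 and 12.9 FPKM in SKA3-KD. Both SKA3-KD libraries lay below NC, with a log2 fold change of -0.56 (SE 0.10, adjusted p = 0.0341, limma).

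MRPS14 and MRPS16 are small subunit proteins with bacterial counterparts. MRPS14 (ENSG00000120333, chromosome 1, 175010789 to 175023425, minus strand) had close replicates, 16.6 and 16.7 FPKM in NC and 12.1 and 11.7 FPKM in SKA3-KD. Its log2 fold change was -0.45 (SE 0.06, adjusted p = 0.0196, limma), the lowest adjusted p among the members, and 13.5% of its exon bases lie opposite CACYBP. MRPS16 (ENSG00000182180, chromosome 10, 73248843 to 73252693, minus strand) was the most abundant of the 7, with 45.6 and 44.3 FPKM in NC and 36.7 and 37.9 FPKM in SKA3-KD. It fell by 0.26 on the log2 scale (SE 0.06, adjusted p = 0.0479, limma), the fold change nearest to 0 among the 7.

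In the large subunit, MRPL42 is mitochondria-specific, while MRPL9 and MRPL20 have bacterial counterparts that bind ribosomal RNA. MRPL42 (ENSG00000198015, chromosome 12, 93467488 to 93516213, plus strand) had 18.4 and 16.8 FPKM in NC and 13.6 and 11.9 FPKM in SKA3-KD, a log2 fold change of -0.43 (SE 0.09, adjusted p = 0.0429, limma). MRPL9 (ENSG00000143436, chromosome 1, 151759643 to 151763564, minus strand) had 22.2 and 25.1 FPKM in NC and 17.6 and 18.1 FPKM in SKA3-KD, or -0.39 on the log2 scale (SE 0.08, adjusted p = 0.0410, limma). For MRPL9, 38.5% of exon bases overlap other genes, among them OAZ3 on the opposite strand, and whether counting used strand is not stated. MRPL20 (ENSG00000242485, chromosome 1, 1401908 to 1407313, minus strand), whose upstream stretch holds the paired ETS letters, had 27.6 and 28.6 FPKM in NC and 23.3 and 22.2 FPKM in SKA3-KD. Its log2 fold change was -0.29 (SE 0.06, adjusted p = 0.0428, limma). In each of the 3 genes both SKA3-KD libraries were below both NC libraries.

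Annotated pseudogenes, to which reads of a parent gene can map, exist for 32 of the 76 members and for 6 of the 7 that fell. MRPL42 has 4, MRPS33 and MRPS16 have 3 each, MRPS35 has 2, and MRPL9 and MRPL20 have 1 each. Of the 7, MRPS16, MRPL20, MRPL9 and MRPL42 share exon bases with another gene on the same strand, 10.5% in MRPL20 and less in the others. Among the 12 tested members that share exons this way 4 fell (33.3%). Among the 60 that do not 3 fell (5.0%), MRPS35, MRPS33 and MRPS14, beside 6.11% of all genes tested. The part of pseudogenes and shared exons in these values was not tested.

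**Figure D2:**
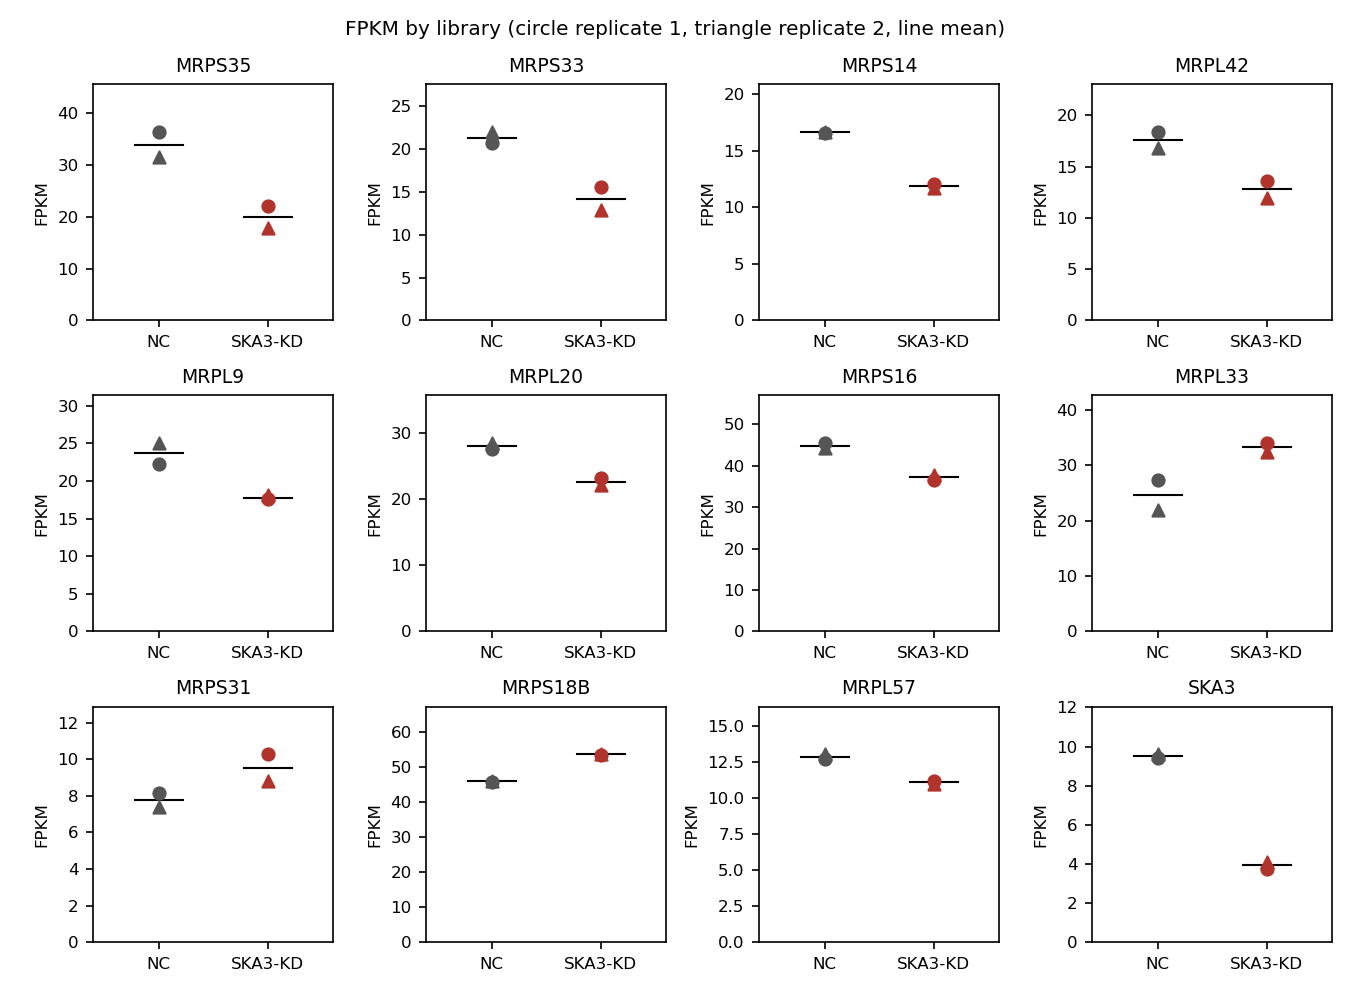
FPKM (vertical axes from 0) in each NC and SKA3-KD library for the 7 members that fell, the 3 members with the largest positive fold changes, MRPL57 and its neighbour SKA3. Circles are replicate 1, triangles replicate 2 and lines the means. In all 12 panels the NC and SKA3-KD values do not overlap. Of all genes tested, 29.2% had both SKA3-KD libraries below NC and 32.3% above. The members that fell and those with the largest positive fold changes were picked by their values, so their separation adds no support.

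The largest positive fold changes belonged to MRPL33, MRPS31 and MRPS18B, and none passed the threshold. MRPL33, a large subunit protein with a bacterial counterpart, had 27.3 and 21.9 FPKM in NC and 34.1 and 32.5 FPKM in SKA3-KD. Its log2 fold change was 0.43 (95% interval 0.14 to 0.72, adjusted p = 0.0697, limma), and 21.1% of its exon bases are shared with BABAM2. MRPS31, a mitochondria-specific small subunit protein, had 8.13 and 7.40 FPKM in NC and 10.3 and 8.81 FPKM in SKA3-KD, a log2 fold change of 0.26 (95% interval 0.02 to 0.51, adjusted p = 0.142, limma). MRPS18B had 45.8 and 46.2 FPKM in NC and 53.5 and 53.9 FPKM in SKA3-KD, a log2 fold change of 0.22 (95% interval 0.08 to 0.35, adjusted p = 0.0597, limma). The groups did not overlap in any of the 3, which were picked by their fold changes. Limma voom on recovered reads called MRPL33 (adjusted p = 0.00538) and MRPS18B (adjusted p = 0.0429) higher, as did the test over genes with a mean of at least 5 FPKM.

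The paralogs MRPS18A, MRPS18B and MRPS18C all derive from bacterial S18 and occupy different sites of the mitoribosome. MRPS18B was the most abundant, as above. MRPS18A had 15.0 and 18.0 FPKM in NC and 12.5 and 17.8 FPKM in SKA3-KD, and its groups overlapped (log2 fold change -0.13, SE 0.18, adjusted p = 0.669, limma). Without SKA3-KD 1 that value was 0.11. MRPS18C had 2.28 and 2.07 FPKM in NC and 1.96 and 2.02 FPKM in SKA3-KD, with a log2 fold change of -0.09 (SE 0.11, adjusted p = 0.636, limma) and an interval of -0.37 to 0.20.

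Across all 72 tested members the log2 fold changes were negative in 45 and positive in 27, with a median of -0.06 beside 0.01 over all genes tested. Of all 12645 genes tested, 6125 were negative and 6520 positive. In 25 members the fold change was within 0.1 of 0 on the log2 scale, a share not counted over all genes. The groups overlapped in 28 members (38.9%), beside 4860 of all 12645 genes tested. Both SKA3-KD libraries were below both NC libraries in 25 members (34.7%, beside 29.2% of all genes tested) and above in 19 (26.4%, beside 32.3% of all genes tested). None of the 5 most abundant members passed the threshold. The log2 fold changes were 0.14 for MRPS34 (adjusted p = 0.146, limma), -0.17 for MRPL51 (adjusted p = 0.230), 0.16 for MRPL3 (adjusted p = 0.213), -0.22 for MRPL14 (adjusted p = 0.0951) and 0.02 for MRPL37 (adjusted p = 0.813).

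**Figure D3:**
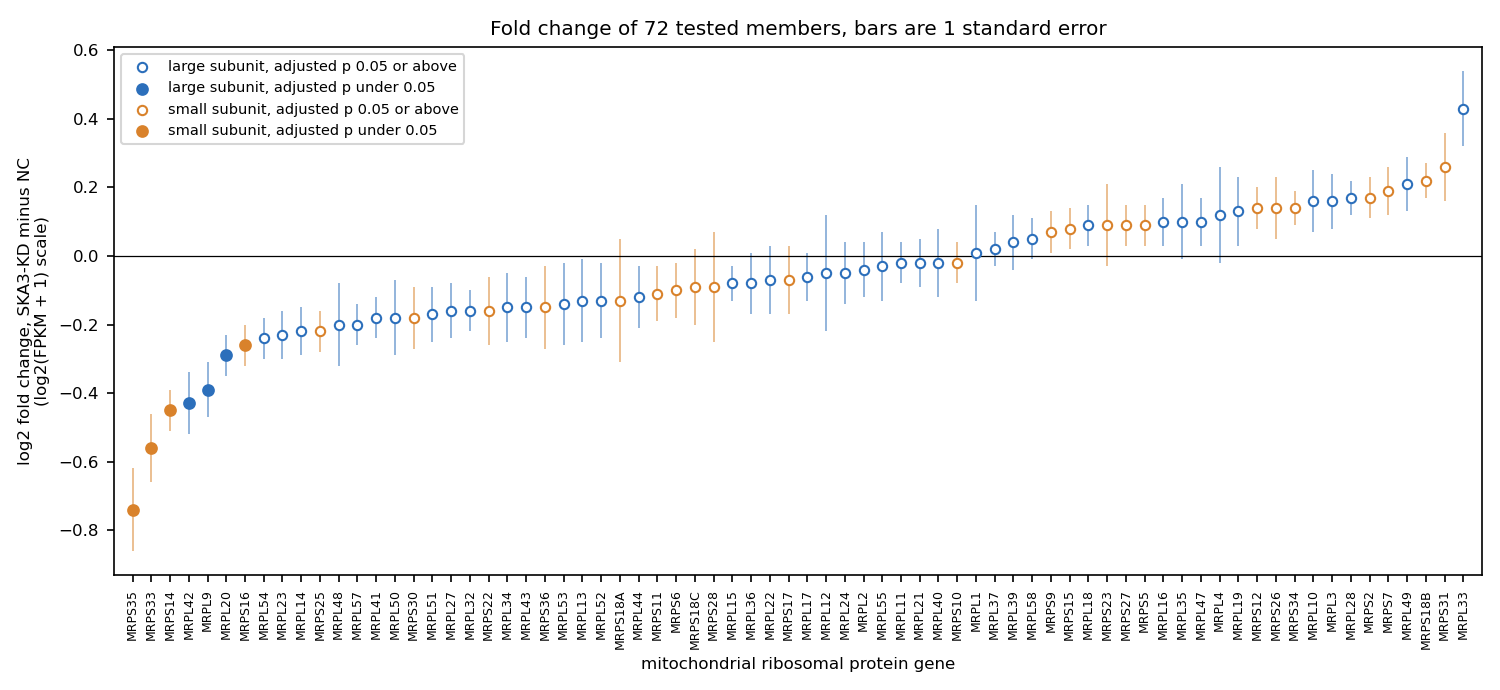
Log2 fold change (SKA3-KD minus NC, log2(FPKM + 1) scale) of the 72 tested members in ascending order, bars 1 standard error from limma, blue for the large and orange for the small subunit. Filled points passed an adjusted p of 0.05, and all 7 lie at the low end, from -0.74 in MRPS35 to -0.26 in MRPS16.

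The large and small subunits were then set side by side. In the large subunit 3 of 45 genes (6.67%) fell, with a median log2 fold change of -0.06 and a range of -0.43 to 0.43. In the small subunit 4 of 27 (14.8%) fell, with a median of -0.07 and a range of -0.74 to 0.26. Of all genes tested, 6.11% were lower by limma on log2(FPKM + 1) and 12.0% by voom. Voom also called 3 genes of the large and 4 of the small subunit lower. The difference between the subunits was not tested. Summed over the subunit, large subunit FPKM was 1320 and 1276 in NC and 1289 and 1236 in SKA3-KD, and small subunit FPKM was 667.7 and 652.8 in NC and 662.2 and 652.0 in SKA3-KD. The sums overlapped between the groups in the large subunit, and in the small subunit SKA3-KD 2 was below both NC libraries while SKA3-KD 1 was between them. The ratio of large to small was 1.98 and 1.96 in NC and 1.95 and 1.90 in SKA3-KD. All members together held 0.491% and 0.473% of NC reads, and 0.477% and 0.453% of SKA3-KD reads.

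The libraries of SKA3-KD did not deviate equally from the NC mean. The median deviation over the members was -0.01 on the log2 scale in SKA3-KD 1 and -0.09 in SKA3-KD 2. For the large subunit it was -0.01 and -0.10, and for the small subunit -0.01 and -0.03. A grouping by structure, in which MRPS18A and MRPS30 count to the large subunit and MRPS36 to neither, gave a median fold change of -0.07 for the large and 0.03 for the small subunit, with the 7 falls still split 3 and 4.

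By descent, 43 tested members have bacterial counterparts and 29 are mitochondria-specific, MRPS18A and MRPS18B being counted with the latter after structural nomenclature. MRPS36, which belongs to neither subunit by structure, is also counted with the mitochondria-specific ones. Among those with bacterial counterparts 4 fell (9.3%), MRPS14, MRPS16, MRPL9 and MRPL20, and the median log2 fold change was -0.04. Among the mitochondria-specific ones 3 fell (10.3%), MRPS35, MRPS33 and MRPL42, and the median was -0.14. Of all genes tested 6.11% were called lower. The mitochondria-specific genes of the large subunit had negative fold changes in 12 of 16, beside 6125 of all 12645 genes tested. Their median was -0.15, with median deviations of -0.12 in SKA3-KD 1 and -0.11 in SKA3-KD 2. Large subunit genes with bacterial counterparts had median deviations of 0.02 and -0.09. No test was run between these classes.

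MRPL57, the mitochondria-specific large subunit gene that shares its start region with SKA3 (ENSG00000173141, chromosome 13, 21176645 to 21179084, plus strand), had 12.7 and 13.1 FPKM in NC and 11.2 and 11 FPKM in SKA3-KD. Both SKA3-KD libraries were below NC, and the log2 fold change was -0.20 (95% interval -0.35 to -0.04, adjusted p = 0.108, limma), while SKA3 fell by 1.09. MRPL57 is described for its position and not for its values. It has 5 annotated pseudogenes. Of the 76 members, 29 have a protein-coding neighbour on the other strand whose start lies within 1000 bases. Besides SKA3, only TMEM63B, beside MRPL14, passed among the neighbours tested, and it was higher by 0.38 on the log2 scale (adjusted p = 0.0408, limma). Of the 7 members that fell, only MRPL9 has such a neighbour, OAZ3, which was not tested.

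Motif letters were counted on both strands of the 67 member promoters and of 15842 promoters of protein-coding genes, and no motif contains another. The ETS motif CCGGAAG stood in 28 member promoters (41.8%) beside 14.2% of all, and the YY1 motif AAGATGGC in 19 (28.4%) beside 3.91% of all. The NRF1 motif was in 8 (11.9%) beside 12.0% of all. TATAAA was in 2 (2.99%) beside 9.63%, and CCAAT in 19 (28.4%) beside 36.4%. Of the 7 members that fell, MRPS16, MRPL20 and MRPS33 held the ETS letters, MRPL20 and MRPL42 the YY1 letters and MRPS33 the NRF1 letters. The ETS letters of MRPS16 and MRPS33 and the YY1 letters of MRPL20 and MRPL42 reached past the start site. The median log2 fold change was -0.06 in the 26 tested members with ETS letters and -0.06 in the 37 without, and -0.11 in the 16 with YY1 letters against -0.05 in the 47 without. Matching letters do not show that a factor binds.

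**Figure D4:**
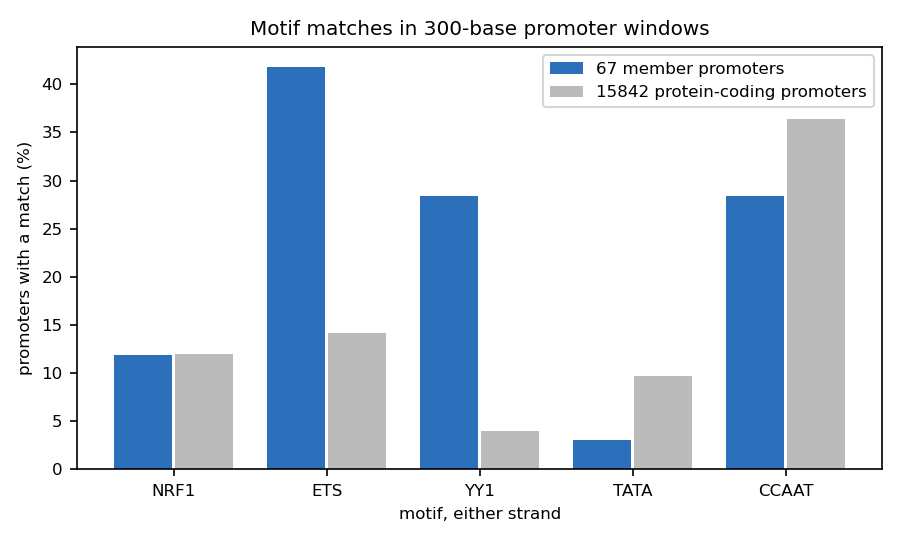
Share of promoters (%, vertical axis from 0) with a match to each motif on either strand, for the 67 member promoters (blue) and 15842 protein-coding promoters (grey). ETS letters are in 41.8% of member promoters against 14.2% of all, and YY1 letters in 28.4% against 3.91%.

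NRF1, GABPA and YY1, known to bind such motifs, were not called. NRF1 had 5.06 and 5.11 FPKM in NC and 5.17 and 5.28 FPKM in SKA3-KD (log2 fold change 0.03, adjusted p = 0.793, limma), GABPA -0.10 (adjusted p = 0.407) and YY1 -0.09 (adjusted p = 0.364). Of 9 regulators of mitochondrial biogenesis, 2 fell (22.2%, beside 6.11% of all genes tested). PPARGC1A, the coactivator PGC-1α, had 2.84 and 2.64 FPKM in NC and 0.981 and 0.815 FPKM in SKA3-KD, both SKA3-KD libraries being far below NC. Its log2 fold change was -0.98 (SE 0.13, adjusted p = 0.0189, limma) and -1.62 by limma voom on recovered reads, where no pseudocount of 1 FPKM is added. MYC, which drives growth and ribosome genes, had 77.7 and 83.9 FPKM in NC and 57.7 and 62.7 FPKM in SKA3-KD, a log2 fold change of -0.42 (SE 0.07, adjusted p = 0.0301, limma).

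The other proteins of the mitoribosome, named outside the MRPL and MRPS series, showed no call among 5 tested (DAP3, CHCHD1, AURKAIP1, PTCD3 and GADD45GIP1), with a median log2 fold change of -0.01. At an unadjusted p under 0.05, PTCD3 was higher (log2 fold change 0.25, adjusted p = 0.10, limma), and voom also called it. Assembly factors moved in both directions, with 2 lower and 2 higher of 21 tested. This was 9.52% each way, beside 6.11% of all genes tested lower and 6.16% higher. METTL17, which acts on the small subunit, fell from 4.70 and 4.24 FPKM to 2.12 and 2.48 FPKM (log2 fold change -0.73, adjusted p = 0.0218, limma). YBEY, a processing endoribonuclease, fell from 11.3 and 11.6 FPKM to 9.03 and 8.35 FPKM (-0.36, adjusted p = 0.0382). RPUSD4, a pseudouridine synthase of the large subunit RNA, rose from 5.43 and 5.63 FPKM to 9.05 and 9.19 FPKM (0.63, adjusted p = 0.0129). ERAL1, a chaperone of the small subunit RNA, rose from 18.4 and 20 FPKM to 24.2 and 26.1 FPKM (0.37, adjusted p = 0.0401). In all 4, picked by their calls, the groups did not overlap. Each call on this and the other related lists was lost when any library was left out or when low genes were kept in the fit.

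Of 18 translation factors, 1 was called, and it was lower (5.56%, beside 6.11% of all genes tested). OXA1L, the inner membrane insertase that receives nascent chains from the mitoribosome, had 33.6 and 31.4 FPKM in NC and 20.7 and 18.8 FPKM in SKA3-KD (log2 fold change -0.70, SE 0.08, adjusted p = 0.0136, limma). Of 16 mitochondrial aminoacyl-tRNA synthetases, TARS2 alone passed, as higher (6.25%, beside 6.16% of all genes tested). TARS2 had 16.0 and 16.7 FPKM in NC and 19.8 and 20.4 FPKM in SKA3-KD (0.28, adjusted p = 0.0475, limma). The list had a median of 0.06. Of 16 genes of mitochondrial DNA transcription and maintenance, HSD17B10 alone passed, as lower (6.25%, beside 6.11% of all genes tested). HSD17B10, a subunit of the mitochondrial RNase P, had 197 and 203 FPKM in NC and 169 and 165 FPKM in SKA3-KD (-0.26, adjusted p = 0.0408, limma). Among the 15 genes of mitochondrial DNA none was called by limma on log2(FPKM + 1), the median was 0.02, and voom called MT-RNR2 and MT-CO3 lower and MT-ND4 and MT-ND4L higher. The ribosomal RNA genes that these proteins assemble on had log2 fold changes of 0.06 for MT-RNR1 (adjusted p = 0.767) and -0.23 for MT-RNR2 (adjusted p = 0.204, limma, and 0.0235 by voom).

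Cytosolic ribosomal protein genes and complex I subunit genes were set beside the members as the most alike groups. Of 75 cytosolic ribosomal protein genes 10 fell (13.3%) and 0 rose, with negative fold changes in 73 and a median of -0.19. Their summed FPKM was 26680 and 25540 in NC and 23380 and 21960 in SKA3-KD, without overlap, whereas that of the mitoribosomal genes was 1988 and 1929 in NC and 1951 and 1888 in SKA3-KD, with overlap. Of 34 complex I subunit genes 6 fell (17.6%) and 0 rose, with a median of -0.15. By voom 43 of the cytosolic and 13 of the complex I genes were lower and 0 of either higher, beside 7 lower and 2 higher members. All genes stood at 6.11% lower and 6.16% higher by limma on log2(FPKM + 1), and at 12.0% lower and 13.4% higher by voom. Fold changes were negative in 6125 of all 12645 genes tested. The difference between these groups of genes was not tested.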

How the data were processed

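RNA-seq was available for 2 NC and 2 SKA3-KD cultures, grouped by the sample labels. The authors deposited FPKM values per gene, scaled to gene length and library size. Their processing notes name HISAT2, Bowtie2 2.2.8, StringTie 1.3.1, Cuffdiff 2.1.1 and build hg19, without roles. Symbols, positions and exon lengths came from GENCODE 29 (GRCh38) by Ensembl identifier, so the positions are not those of hg19. Rows of 20 pseudogenes or noncoding genes with member symbols were left out.

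The 12645 genes averaging 1 FPKM or more over the libraries were fitted with limma 3.58.1 (R 4.3.3; lmFit, eBayes with trend) on log2(FPKM + 1), two-sided, with Benjamini-Hochberg adjustment at 0.05. Fold changes on this scale understate changes of low genes. Whole reads were recovered from the FPKM steps within 0.01, with the GENCODE 29 exon length for 62 of 76 members and another fitted length for 14. Replicates differed by more than counting noise (chi-square per degree of freedom 3.75 in NC, 3.66 in SKA3-KD).

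The members, lists and tests were chosen with earlier results of these data known. Genes named are members past the threshold, the 3 largest fold changes each way, the 5 highest and 5 lowest levels, untested members, the MRPS18 paralogs, listed genes past the threshold, and SKA3. MRPL57, MRPL12, MRPL54, TMEM63B, PTCD3, the mitochondrial DNA genes and the uncalled regulators were named after their values were seen. Alternatives were a pseudocount of 0.1, other filters, median-of-ratios and quantile scaling, no trend, a replicate block, each library left out, voom and subunits by structure, the last chosen after seeing the data. Python 3.11.15 was used for the remaining steps.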

Additional observations from a re-analysis of the deposited data

How the results depend on the processing

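The same 7 members were lower with a pseudocount of 0.1, median-of-ratios scaling, quantile normalization and limma voom. These 7 plus MRPL54 were lower with a mean of at least 5 FPKM, and these 7 plus MRPL14 with a replicate block. Of all genes, 887 of 7303 were lower and 993 higher with a mean of at least 5 FPKM. With the block, 965 of 12645 were lower and 1002 higher. The pseudocount, median-of-ratios and quantile settings called 782, 782 and 745 of 12645 genes lower. With no filter on low FPKM 0 members were lower, where 14 had an unadjusted p under 0.05. In that fit 81 of all 26504 genes were called lower. Without a mean-variance trend 1 member was lower (MRPS14), beside 381 of all 12645 genes. No member call was kept when a library was left out. Each such fit had 1 culture in a group, so only its fold changes are given. Those of the 7 stayed negative, from -0.89 to -0.59 in MRPS35 and from -0.28 to -0.24 in MRPS16. Members higher numbered 2 (MRPL33 and MRPS18B) with a mean of at least 5 FPKM, with the replicate block and with voom. The small subunit median of -0.07 became 0.03 with subunits by structure, and ranged from -0.07 to 0.03 with each library left out, 0.03 being without NC 1. Each of the 9 calls on the related lists was also lost without any 1 library and with no filter (adjusted p from 0.0542 in RPUSD4 to 0.115 in HSD17B10), and those of ERAL1, YBEY, TARS2, HSD17B10 and MYC without a mean-variance trend (limma). MRPS18A, at -0.13, ranged from -0.36 to 0.11 with each library left out, 0.11 being without SKA3-KD 1. TARS2 lost its call under median-of-ratios scaling (adjusted p = 0.0514) and quantile normalization (adjusted p = 0.0620), and HSD17B10 under quantile normalization (adjusted p = 0.0650), all limma. With the replicate number as a block, 8 members were lower and 2 higher. The correlation of deviations of same-numbered libraries was 0.0973, and the numbers were not taken to pair the cultures. Being taken over all genes tested, this correlation cannot exclude an effect of the replicate number in some of them. At 9015056 to 11966130 reads a library, members with a mean under 1 FPKM were left out by the filter on FPKM, not by a limit on reads. Of these, MRPL46 had 19 to 38 reads a library, beside 22 to 30 in MRPL53, which was tested.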
